A study of Mus musculus with 6 samples.

Results

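C1q-positive marrow macrophages are the cells in which all 3 chains of the complement component C1q were detected together in c-Kit-enriched mouse bone marrow. They were selected on measured values: among cells with 500 to 7500 detected genes and at most 15% mitochondrial UMIs (unique molecular identifiers, 1 per captured mRNA molecule), a member had at least 1 UMI each of C1qa, C1qb and C1qc and at least 4 UMIs of the 3 together. The rule kept 230 of 32762 cells, or 0.702% (95% exact binomial interval 0.614% to 0.798%, which covers counting error only). Pool 1 held 87 members, pool 2 held 39 and pool 3 held 104.

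The study asked how brequinar (BRQ), an inhibitor of the pyrimidine synthesis enzyme DHODH, changes marrow progenitors in mice with 4T1 tumors, a mammary carcinoma line that expands myeloid cells. All mice were female BALB/c, 10 weeks old at harvest. Non-tumor-bearing (NTB) mice were compared with mice that carried 4T1 cells in a mammary gland and received vehicle (Veh) or daily intraperitoneal BRQ at 10 mg/kg, begun once tumors could be measured. BRQ was given in sterile water per the methods. The length of treatment before this harvest was not given in the sources used here. The pools held 100700982 to 135564079 gene UMIs. Each of 3 pools combined 1 mouse of each group, so that every group had 3 mice, and antibody hashtags marked the mouse of origin. The c-Kit selection by magnetic beads enriches progenitors, so the shares below are shares of the captured cells and not of the marrow.

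Marrow macrophages are long-lived phagocytes. They clear dying neutrophils and the nuclei that erythroblasts expel, they break down heme and return its iron to developing red cells, and in erythroblastic islands they hold erythroblasts through adhesion molecules such as VCAM1. C1q is made mainly by macrophages and related cells, and it tags apoptotic cells for uptake. The transcription factor MAF drives C1q genes in macrophages, and SPIC drives the program of iron recycling.

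The 3 genes the rule used lie side by side on the minus strand of chromosome 4 in GRCm38, the assembly that mm10 names. C1qb spans chr4:136880129-136886187, C1qc spans chr4:136889804-136893065 and C1qa spans chr4:136895917-136898803. The RefSeq promoters of C1qb (chr4:136886151-136886450) and C1qc (chr4:136892865-136893164), each from 250 bases before to 50 bases after the start and read along the minus strand, are shown because these genes define the cells. Capitals mark GAGGAA, the core that the macrophage factor PU.1 recognizes, and TGCTGA, the arm of a MAF element, on either strand.
C1qb: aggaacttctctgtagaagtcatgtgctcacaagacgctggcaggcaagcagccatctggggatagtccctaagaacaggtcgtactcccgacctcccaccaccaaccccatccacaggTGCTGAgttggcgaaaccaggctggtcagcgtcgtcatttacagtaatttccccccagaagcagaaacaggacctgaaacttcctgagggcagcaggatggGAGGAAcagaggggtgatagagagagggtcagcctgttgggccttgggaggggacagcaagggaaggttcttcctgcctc
C1qc: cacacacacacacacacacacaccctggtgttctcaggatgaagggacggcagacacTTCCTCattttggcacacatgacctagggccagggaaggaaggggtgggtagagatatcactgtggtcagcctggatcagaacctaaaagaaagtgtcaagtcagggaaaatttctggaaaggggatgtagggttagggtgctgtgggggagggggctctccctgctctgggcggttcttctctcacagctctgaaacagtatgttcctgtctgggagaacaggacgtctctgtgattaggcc
The C1qb window held 1 match to each motif, and the C1qc window held 1 GAGGAA and no TGCTGA. Among 27025 mouse promoters of the same length, 28.3% held GAGGAA and 19.1% held TGCTGA. Of the 22 macrophage marker genes described below, 12 had an entry, and 8 of these held GAGGAA and 6 held TGCTGA.

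Members carried little RNA. Their median was 2700 UMIs (range 733 to 36902) and 1440 detected genes per cell, against 9515 UMIs and 2697 genes in the other 32532 kept cells. Median depth was lower in members in every pool, at 2262, 3056 and 2679.5 UMIs against 9888.5, 9088 and 9524. The mitochondrial share was higher, with a median of 5.28% against 3.00%. C1q UMIs per member had a median of 16 and reached 171.

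The edge of the rule fell in a mixed zone. Of the 7 cells just inside it, with all 3 chains and 4 UMIs, 6 had at least 1 UMI of Axl, Mrc1 or Maf. Of the 5 cells just outside, with all 3 chains and 3 UMIs, 4 had one. The requirement for all 3 chains left out more: 65 kept cells had at least 4 C1q UMIs but lacked a chain, with a median depth of 1311 UMIs, and 56 of them had Axl and 61 had Vcam1. Of 557 cells with a single C1q UMI, 54 (9.69%) had any of Axl, Mrc1 and Maf, against 970 of 31819 cells (3.05%) with none. Cells of other types also held a stray C1q UMI. It appeared in 2 of 298 B lineage cells that were no members (0.671%, exact binomial interval 0.0814% to 2.40%, median depth 8049 UMIs) and in 45 of 1846 erythroid cells (2.44%, interval 1.78% to 3.25%, median depth 19394 UMIs).

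Macrophage markers that the rule had not used were also high in members. Axl, Mrc1 and Maf were listed with earlier results of these data known, so they are no independent support for the label. Axl, a receptor for phosphatidylserine-coated debris through the bridging molecule GAS6, was detected in 205 of 230 members (89.1%) and in 1.07% of other cells. Mrc1, the mannose receptor CD206, was detected in 196 members (85.2%) and Maf in 182 (79.1%). All 3 were found together in 153 members (66.5%), and 6 members (2.61%) had none. On the scale of UMIs per 10000 UMIs summed over cells, Axl stood at 11.8 in members and 0.0139 in other cells, Mrc1 at 8.48 and 0.0226, and Maf at 7.18 and 0.0143. These differences, and all others between members and other cells, describe a contrast that the rule itself made, so no test was run on them.

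**Figure D1:**
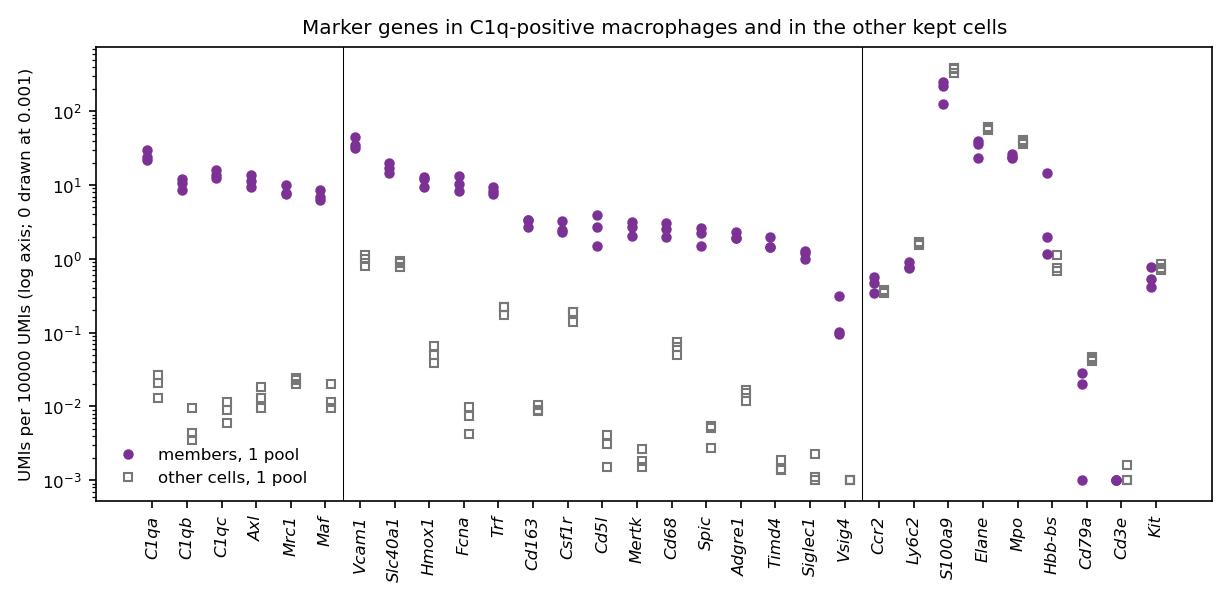
UMIs per 10000 UMIs (log axis) of marker genes, 1 point per pool, in members (filled circles) and in the other kept cells (open squares); the panel runs from the markers of C1q-positive cells through resident macrophage markers to genes of other cell types. Members lay above other cells in each pool for every macrophage marker drawn, while S100a9, Elane and Mpo lay below.

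Resident macrophage markers were high in members. Of 16 such genes, 15 passed the floor of 100 UMIs over all kept cells, and all 15 were at least 2-fold higher in members in each of the 3 pools, against 5.35% of the 13502 genes that passed. The floor counts the members' own UMIs, so a gene can pass through members alone. With the floor on other cells alone, set after seeing the data, 12 of 12 resident markers were higher, against 5.15% of 13465 genes. Vcam1 was detected in 223 members (97.0%) and 32.9% of other cells, and Slc40a1, the iron exporter ferroportin, in 215 (93.5%) and 49.7%. Trf, transferrin, was detected in 202 (87.8%) and 15.9% of other cells, and Fcna, the lectin ficolin A, in 196 (85.2%) and 0.615%. Hmox1, the heme-degrading enzyme heme oxygenase 1, was found in 170 (73.9%) and 4.81% of other cells. Found in fewer members were Cd163, the scavenger receptor for hemoglobin bound to haptoglobin (114), Mertk (110), Cd5l (110), Spic (109), Adgre1, which encodes F4/80 (107), and Timd4 (100). Siglec1, the adhesion receptor CD169, was found in 70 members (30.4%). Vsig4, a complement receptor of Kupffer cells, was at the other end, with 7 members (3.04%).

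Most members had at least 1 of these partial markers. At least 1 of Spic, Cd163, Timd4, Cd5l, Siglec1 and Mertk was detected in 207 of 230 members, and at least 3 of them in 121 (52.6%). With a median of 2700 UMIs, a gene missing from a member may have been missed by sampling, and a UMI in a droplet need not come from the macrophage itself.

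Several markers of other lineages had no UMI in members, while others were present. Of 7 dendritic cell genes above the floor, 2 were at least 2-fold higher in members in each pool: Irf8, a transcription factor gene of dendritic cells and monocytes, at 3.42 UMIs per 10000 against 1.03, and Itgax, which encodes CD11c, at 0.142 against 0.00655. Ccr9, Xcr1 and Cd209a had 0 UMIs in all members, and Siglech had 1 member. Of 8 monocyte genes 1 was higher, Cx3cr1, the fractalkine receptor gene, at 0.522 against 0.0966, found in 7.83% of members and 5.73% of other cells. Erythroid genes summed to 16.2 UMIs per 10000 in members against 5.44, with 2 of 11 at least 2-fold higher in each pool (Hba-a2 and Hbb-bt), and neutrophil and GMP (granulocyte-monocyte progenitor) genes to 560.02 against 965; both are described further on. Pax5 and Vpreb3 (B cells), Cd3e, Trbc2, Gzma and Klrd1 (T and NK cells), and Lepr, Col1a1, Cdh5 and Kdr (stroma and endothelium) had 0 UMIs. Ccr2, the chemokine receptor of classical monocytes, was found in 16 members (6.96%), and 10 of these 16 also had at least 1 of the 6 resident markers above. Ly6c2 was at 0.797 UMIs per 10000 in members and 4.51 in the 1764 comparison monocytes (Csf1r and Ccr2 detected, no C1q). Cd79b, a subunit of the B cell receptor, went against this: it was found in 71 members (30.9%) and 15.5% of other cells, while its partner Cd79a was found in 2 members. Kit, the target of the bead selection, was found in 26 members (11.3%) and in 39.8% of other cells.

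Genes that the marker lists did not hold, picked after their values were seen, were also high. Sdc3, a heparan sulfate proteoglycan, was at 8.87 UMIs per 10000 in members and 0.0148 in other cells. Ccr3, known as the eotaxin receptor of eosinophils, was found in 146 members (63.5%), and 139 of them also had a resident marker, while Epx and Prg2, which encode eosinophil granule proteins, were found in 5 and 4 members. Itgad, the integrin alpha D chain of splenic red pulp macrophages, was found in 142 members (61.7%), and Kcnj10, a potassium channel gene, was at 2.47 UMIs per 10000 against 0.00219.

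Genes of phagocytosis and digestion were among those higher in members. Of 31 efferocytosis receptors and bridging molecules above the floor, 18 were at least 2-fold higher in each pool and 0 at least 2-fold lower, with a median log2 ratio of 1.81 against -0.07 over all 13502 genes. With the floor on other cells alone, 14 of 27 were higher, as were 14 of 34 genes of lipid handling and 7 of 17 niche genes, and the counts of the other lists below did not change. Lrp1, an engulfment receptor, was at 3.47 UMIs per 10000 against 0.0452, Mertk at 2.78 against 0.00205, and Gas6, the ligand of AXL and MERTK, was found in 41 members (17.8%) and 0.307% of other cells. Of 53 lysosome genes, 33 were at least 2-fold higher and 0 lower, with a median log2 ratio of 1.70. The protease genes Ctsb and Ctsd stood at 38.6 and 24.0 UMIs per 10000 against 1.54 and 2.24, and Lgmn, which encodes the asparaginyl protease legumain, stood at 7.82 against 0.0207.

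Iron and lipid genes followed. Of 24 genes of heme and iron recycling, 14 were at least 2-fold higher in every pool and 0 lower, with a median log2 ratio of 1.38. Ferroportin (Slc40a1) was at 17.0 UMIs per 10000 against 0.861, Hmox1 at 11.9 against 0.0520, and the ferritin light chain gene Ftl1 at 59.7 against 12.8. Of 36 genes of lipid handling, 16 were higher and 0 lower. Apoe, the lipid carrier apolipoprotein E, was at 39.5 against 0.322, Lpl, lipoprotein lipase, at 7.44 against 0.0948, and the cholesterol exporter gene Abca1 at 3.75 against 0.0407.

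Antigen presentation, growth factor and cytokine genes split. Of 13 genes of MHC class II presentation, 6 were higher. Cd74, the class II chaperone, was at 14.7 UMIs per 10000 against 0.357, and H2-Aa was found in 96 members (41.7%). Of 19 niche and growth factor genes, 9 were higher, among them Igf1 (149 members, 64.8%) and Kitl, the ligand of the KIT receptor (44 members, 19.1%, against 0.111% of other cells). Of 34 cytokine and suppressive factor genes above the floor, 8 were higher, among them Il18 and its inhibitor Il18bp. Il6, Arg1, Nos2, Ptgs2, Ido1, Ccl2, Ccl5, Cxcl1, Cxcl2, Thbs1 and Retnla had 0 UMIs in members. Of the 45 genes listed, 11 were under the floor over all kept cells, and Arg1 was found in 0.141% of other cells. So these zeros need not set members apart. Of 39 interferon-stimulated genes, 7 were higher, led by Ifi44 at 1.21 against 0.0495. None of the 43 genes of the unfolded protein response and none of the 79 cytoplasmic ribosomal protein genes were 2-fold higher or 2-fold lower in every pool, with median log2 ratios of 0.02 and -0.47. Over all genes, 0.119% were at least 2-fold lower in each pool.

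**Figure D2:**
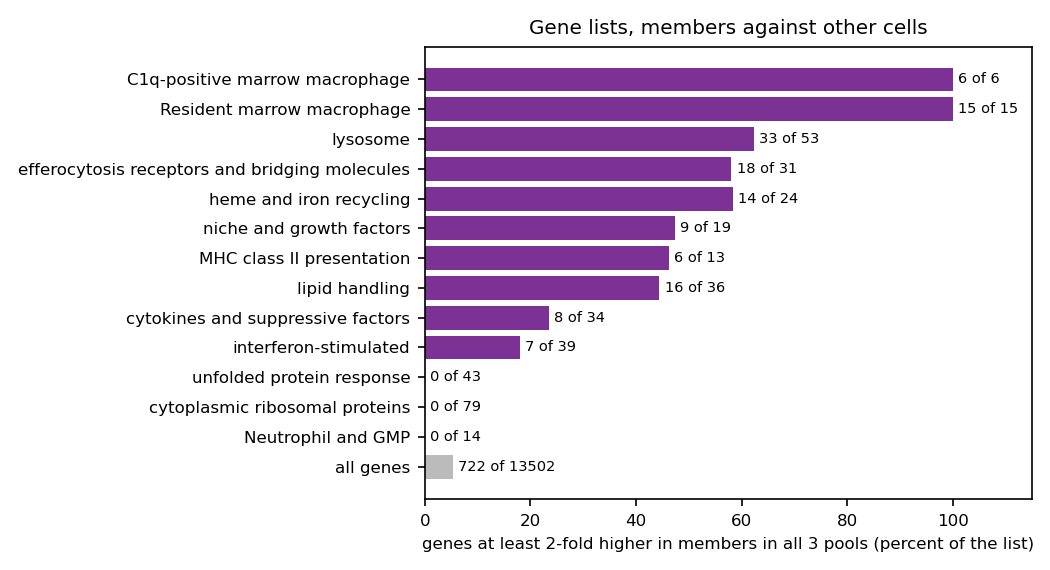
Percent of each list's genes above the floor of 100 UMIs that were at least 2-fold higher in members than in other cells in all 3 pools, with the counts beside the bars. Lysosome (33 of 53), efferocytosis (18 of 31) and heme and iron genes (14 of 24) stood high, against 722 of 13502 genes in all, while ribosomal protein and unfolded protein response genes gave 0.

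Many members also carried RNA of neutrophils and their progenitors, and this split the cells by depth. In the 75 members with at most 1500 UMIs and the 93 with 1500 to 5000 UMIs, S100a9, a calcium-binding protein gene of neutrophils, stood at 29.4 and 52.9 UMIs per 10000. B lineage cells, a type not known to make it, stood at 89.4, erythroid cells at 43.0 and monocytes without C1q at 39.4. Per cell, neutrophil and GMP genes held a median of 0.785% and 0.579% of UMIs in the 2 strata. The medians were 0.294% in B lineage cells, 0.169% in erythroid cells and 1.95% in these monocytes. Single members of the 2 strata reached 3.90% and 29.5% of UMIs from these genes. In the 62 members with over 5000 UMIs S100a9 stood at 290, against the 362 of other cells. There, Mki67, a proliferation gene, was detected in 66.1% of members, against 4.00% and 12.9% in the shallower strata and 62.4% of other cells.

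Macrophage genes moved the other way. The 16 resident macrophage markers summed to 243 and 223 UMIs per 10000 in the low and middle strata and to 57.7 in the deepest. The median count of these markers per cell was 23, 59 and 30 UMIs, lowest in the shallowest cells and highest in the middle stratum. C1q UMIs had medians of 11, 24 and 17. Across the 230 members, Spearman's rho with total UMIs was 0.32 for C1q UMIs and 0.75 for the UMIs of the 14 neutrophil and GMP genes. These are descriptions, since both measures are part of the total.

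The plot of C1q UMIs by depth shows 1 band in which C1q rose with depth and a scatter below it. In 168 members C1q made up at least 50 of every 10000 UMIs, and in 62 it made up less; 11 members lay between 40 and 60. Neutrophil and GMP genes held a median of 0.635% of UMIs in the first set and 4.59% in the second, with up to 38.0% in 1 cell. Scrublet, which scores simulated doublets, marked 2 of the 168 and 16 of the 62. Hashtags called 10 and 9 of them doublets of 2 mice. Mki67 was detected in 15 (8.93%) and 41 (66.1%), and in 62.4% of other cells. Vcam1 was found in 98.8% and 91.9%. Free RNA, engulfed cells, attached cells and droplets with 2 cells cannot be told apart in these counts.

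**Figure D3:**
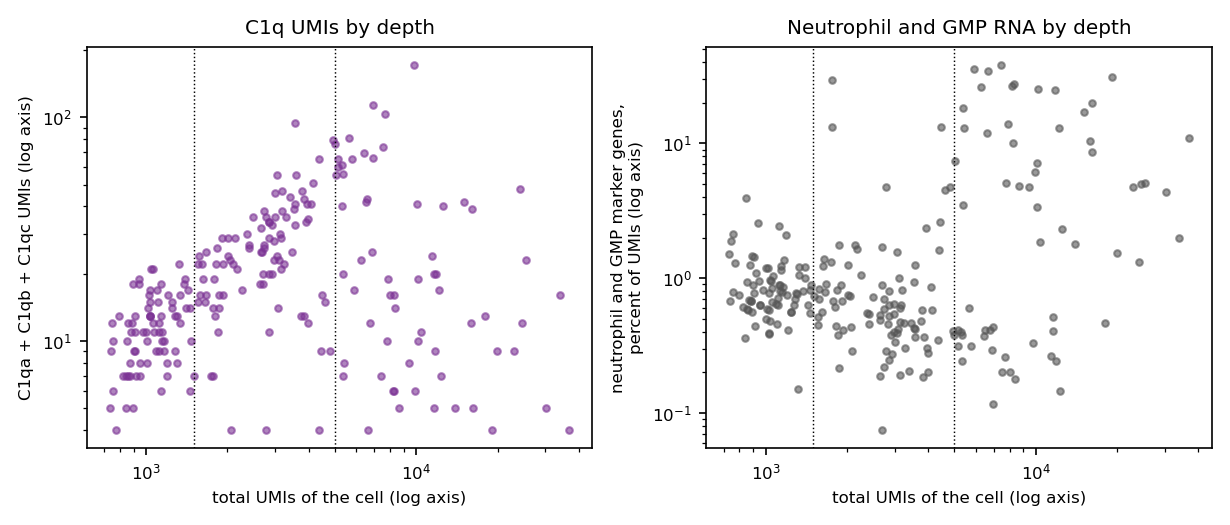
Left, C1q UMIs against total UMIs of each of the 230 members; right, the share of UMIs from 14 neutrophil and GMP genes against total UMIs (all axes log); dotted lines mark 1500 and 5000 UMIs. A band of 168 cells has C1q at 50 or more per 10000 UMIs, and cells with a high neutrophil share lie mostly beyond 5000 UMIs.

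Hemoglobin RNA was found in more members than other cells, but its amount came from 1 cell. At least 1 UMI of Hba-a1, Hba-a2, Hbb-bs or Hbb-bt was found in 72 members (31.3%), 11.2% of other cells and 7.05% of B lineage cells. The members held 1474 such UMIs, of which 1169 (79.3%) were in 1 member of the BRQ mouse of pool 3. Only 5 members had 10 or more. The B lineage cells had a median of 8049 UMIs, and 1 of them held 40 of their 81 hemoglobin UMIs.

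Mouse of origin came from 3 hashtags, shown because every comparison of groups rests on them.
B0301 (NTB): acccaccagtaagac
B0302 (Veh): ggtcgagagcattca
B0303 (BRQ): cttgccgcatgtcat
Each pair differed at 11 or 12 of 15 positions. HTODemux called 147 members (63.9%) singlets, 64 negative and 19 doublets, against 48.6% singlets among other cells. Members had hashtag UMIs at about the level of other cells, with medians of 1909.5 and 1813. One member barcode of 230 was also present in another pool.

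Members were few in Veh mice. The NTB mice held 13 of 554 singlet cells in pool 1 (2.35%), 9 of 1307 in pool 2 (0.689%) and 37 of 2447 in pool 3 (1.51%). The Veh mice held 13 of 2780 (0.468%), 4 of 382 (1.05%) and 3 of 1261 (0.238%). The BRQ mice held 34 of 2571 (1.32%), 13 of 2321 (0.560%) and 21 of 2343 (0.896%).

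The means were 1.52% ± 0.829 in NTB, 0.584% ± 0.417 in Veh and 0.926% ± 0.382 in BRQ mice (SD, n = 3), and the groups overlapped. Veh was lower than NTB by 0.932 percentage points on average, and in 2 of 3 pools (two-sided exact permutation test, p = 0.2, adjusted p = 0.4 over the 3 pairs). BRQ was higher than Veh by 0.342 points, in 2 of 3 pools (exact permutation p = 0.4, adjusted 0.4). BRQ was lower than NTB in all 3 pools, by 0.589 points on average (exact permutation p = 0.4, adjusted 0.4). With 3 mice against 3 the smallest p such a test allows is 0.1, so no difference could pass. When cells were thinned to 3000 UMIs and shallower ones left out, the 3 differences shrank to -0.0144, -0.00163 and -0.0161 points. Few members remained: 4, 2 and 9 in NTB mice, 2, 3 and 1 in Veh mice and 9, 5 and 14 in BRQ mice. The Veh mouse of pool 2 had 3 of 265 cells (1.13%), against 0.0818% and 0.119% in the other Veh mice. With hashtags called by tag ratios, BRQ minus Veh rose to 0.854 and BRQ minus NTB shrank to -0.146 points, and pool 2 turned, with 1.10% in BRQ against 0.608% in NTB. BRQ and Veh mice then did not overlap (exact permutation p = 0.1, the smallest possible). With limits of 500 to 7500 UMIs in place of genes, Veh minus NTB was -1.79 and BRQ minus Veh 1.20 points.

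**Figure D4:**
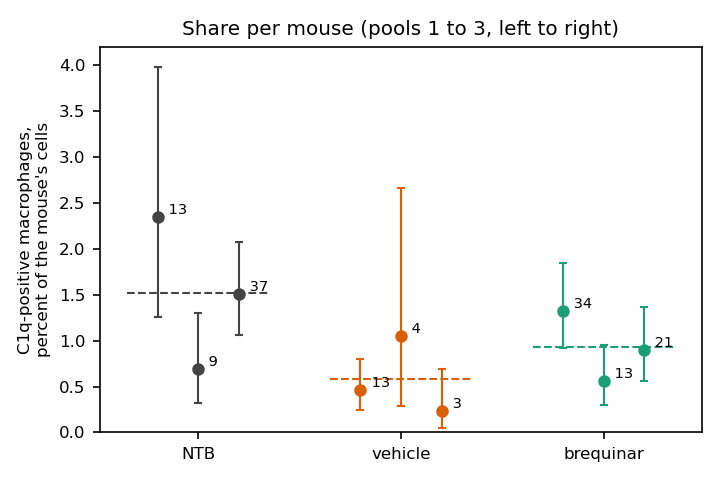
Members as a percent of each mouse's singlet cells, with 95% exact binomial intervals and the number of members beside each point; dashed lines are group means and pools run 1 to 3 from left to right. The groups overlap, and the Veh mice rest on 13, 4 and 3 members.

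Depth per member did not separate the groups. Median UMIs per member were 2935, 2976 and 2732 in NTB, 2179, 4043 and 2698 in Veh, and 2505, 3826 and 3579 in BRQ mice, in the order of the pools. Members over 5000 UMIs numbered 18 of 59 in NTB, 6 of 20 in Veh and 20 of 68 in BRQ mice.

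Gene expression within the members was compared on UMIs summed per mouse. Only 6 mice had the 10 members that the comparison required: NTB mice of pools 1 and 3, the Veh mouse of pool 1 and all 3 BRQ mice. So BRQ was tested against NTB alone, in a fit of those 6 mice. NTB mice had neither tumor nor BRQ, so tumor and BRQ cannot be told apart in this comparison. Of 2517 genes tested, 2 passed an adjusted p of 0.05 in edgeR's quasi-likelihood test (0.0795%), and 57 had an unadjusted p under 0.05. Apoe was higher and Hmox1 was lower in BRQ than in NTB mice. DESeq2 called the same 2 genes.

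Hmox1 (chr8:75093621-75100589, plus strand) was lower in BRQ than in NTB mice. In UMIs per 10000 it stood at 30.3, 21.7 and 20.8 in the NTB mice of pools 1 to 3, at 4.11, 13.2 and 3.56 in the Veh mice, and at 7.75, 7.35 and 6.98 in the BRQ mice. Every NTB mouse lay above all 6 tumor-bearing mice, as did 11 of the 1296 genes measured well enough in all 9 mice (0.849%). The log2 fold change of BRQ against NTB was -1.82 ± 0.37 (SE; edgeR, adjusted p = 0.00977). Over all 3 mice a group, the exact permutation p was 0.1 for BRQ and for Veh against NTB, the smallest possible. The Veh mouse of pool 3, with 3 members, stood apart from the rest: its resident macrophage markers summed to 43.9 UMIs per 10000 (62.3 to 229.8 in the other 8 mice), its Vcam1 level was 7.13 and its MHC class II genes summed to 269.6 (19.3 to 94.8 in the others). The part of this make-up in its Hmox1 and Apoe levels was not tested. BRQ and Veh overlapped, with means of 7.36 ± 0.386 and 6.95 ± 5.39 (SD, n = 3).

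Hmox1 was also set against the C1q UMIs of the same cells. The rule selected on these UMIs, so the ratios are a description. Per 100 C1q UMIs, it stood at 47.9, 43.7 and 55.8 in NTB, at 12.8, 12.05 and 7.69 in Veh, and at 11.6, 20.1 and 6.70 in BRQ mice, again without overlap. In the members with C1q at 50 or more per 10000 UMIs it stood at 56.4, 45.2 and 63.3 in NTB, at 13.7, 13.2 and 0 in Veh, the last from 1 member, and at 15.04, 21.6 and 8.15 in BRQ mice. Among C1q-positive barcodes that the rule had left out, for a missing chain or a failed cell filter, Hmox1 reached 46.4 per 100 C1q UMIs in 35 barcodes of NTB mice, 16.7 in 7 of Veh mice and 14.5 in 16 of BRQ mice. As UMIs per 10000 the same barcodes gave 13.9 in NTB, 1.70 in Veh and 12.5 in BRQ mice, so that on this scale BRQ lay near NTB. In the cells that were no members it was 0.0622 to 0.0792 UMIs per 10000 in NTB, 0.0356 to 0.0538 in Veh and 0.0289 to 0.0566 in BRQ mice.

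The Hmox1 call rested on few mice. It was lost when the pool 1 NTB mouse was left out (edgeR adjusted p = 1.00) or the pool 3 NTB mouse (0.585), which leaves a lone NTB mouse that is assumed to vary like the others, and when the pool 1 BRQ mouse was (0.107). It was also lost with hashtags called by tag ratios (0.318), with at least 20 members a mouse (0.224), where again 1 NTB mouse is left, against 2 BRQ mice, and with at least 3 (1.00). The log2 fold change stayed between -2.06 and -1.55 over 18 alternatives, whose adjusted p ran from 2.58e-11 to 1.00.

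**Figure D5:**
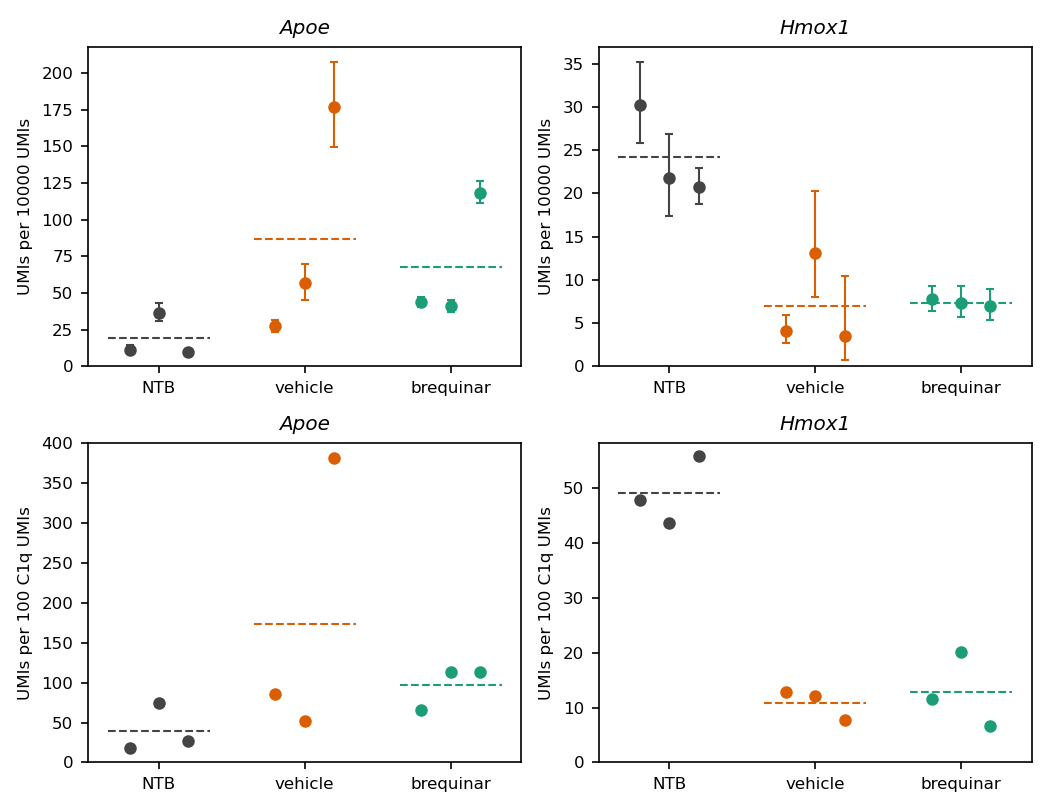
Apoe (left) and Hmox1 (right) in members of each mouse, as UMIs per 10000 UMIs with 95% exact Poisson intervals (top) and per 100 C1q UMIs (bottom); dashed lines are group means and pools run 1 to 3 from left to right. Hmox1 is higher in all 3 NTB mice than in the 6 tumor-bearing mice on both scales, while Apoe overlaps on the lower scale.

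Apoe (chr7:19696109-19699188, minus strand) was higher in BRQ than in NTB mice. It stood at 11.2, 36.7 and 10.0 UMIs per 10000 in NTB, at 27.5, 56.6 and 177 in Veh, and at 43.7, 41.2 and 119 in BRQ mice. The 3 BRQ and 3 NTB mice did not overlap, and nor did they in 7.18% of the 1296 genes. Between the 2 NTB and 3 BRQ mice of the 6-mouse fit, 15.5% of 2517 genes did not overlap. The NTB mouse of pool 2, which had 9 members and was not in the fit, lay close to the BRQ mice. The log2 fold change of BRQ against NTB was 2.63 ± 0.43 (SE; edgeR, adjusted p = 0.00309). Over all 3 mice a group the exact permutation p was 0.1, the smallest possible. BRQ and Veh overlapped (exact permutation p = 0.8).

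Single cells weighed on these values. One cell held 62.6% of the Apoe UMIs of the NTB mouse of pool 2, 87.9% of those of the Veh mouse of pool 3 and 52.5% of those of the BRQ mouse of pool 2. The median of the per-cell levels was 8.76, 11.2 and 8.10 in NTB, 38.8, 46.9 and 51.9 in Veh, and 52.5, 32.2 and 79.5 in BRQ mice. How many genes separate the groups by that measure was not computed. In the members with C1q at 50 or more per 10000 UMIs, Apoe stood at 17.7, 84.0 and 18.5 UMIs per 10000 in NTB, 102, 56.6 and 51.9 in Veh, and 78.2, 139 and 146 in BRQ mice, where the pool 2 NTB mouse overlapped with both other groups. Per 100 C1q UMIs, which the rule used, the values were 17.7, 73.9 and 26.9 in NTB and 65.4, 113 and 114 in BRQ mice, with overlap. In the C1q-positive barcodes outside the rule, Apoe reached 44.8 per 100 C1q UMIs in NTB, 48.1 in Veh and 47.2 in BRQ mice, and as UMIs per 10000 it was at 13.4, 4.90 and 40.8.

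The Apoe call was lost when the pool 3 NTB mouse was left out (edgeR adjusted p = 0.782), with hashtags called by tag ratios (0.998) and in a fit that also took the mice with 3 to 9 members (1.00), in which its log2 fold change was 1.83. It ranged from 1.83 to 2.90 over 18 alternatives. The promoter of Apoe (RefSeq, chr7:19699139-19699438, minus strand) is shown because this gene led the comparison, with GAGGAA on either strand in capitals. It held 2 such matches and no TGCTGA.
Apoe: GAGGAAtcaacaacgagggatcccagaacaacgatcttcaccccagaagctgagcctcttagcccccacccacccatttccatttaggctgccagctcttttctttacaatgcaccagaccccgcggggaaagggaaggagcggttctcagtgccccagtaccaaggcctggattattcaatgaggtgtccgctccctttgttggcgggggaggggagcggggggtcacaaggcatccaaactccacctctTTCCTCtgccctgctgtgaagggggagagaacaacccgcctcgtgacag

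With the pool as a block the count of called genes in BRQ against NTB rose from 2 to 9, with Apoe at 2.75 and Hmox1 at -1.80 on the log2 scale, but this fit of 6 mice had 1 residual degree of freedom and pool 2 entered with its BRQ mouse alone. The other 7 were S100a6, Wfdc17, Retnlg, Pltp, Mpo, Selenop and Elane, named after their values were seen.

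The gene lists otherwise gave no calls in BRQ against NTB. Of 20 tested genes of lipid handling, Apoe was the 1 called, and of 18 of heme and iron recycling, Hmox1 was the 1 called, and their medians were 0.44 and -0.08 on the log2 scale against 0.02 over all 2517 genes. Of 20 efferocytosis, 40 lysosome, 8 MHC class II, 6 interferon-stimulated, 12 cytokine, 6 niche, 24 unfolded protein response and 79 ribosomal protein genes, 0 were called. Vcam1 had a log2 fold change of 0.23 ± 0.35 (SE; edgeR, adjusted p = 0.997), Slc40a1 0.17 ± 0.37 (0.997), Axl 0.34 ± 0.39 (0.997), C1qa 0.34 ± 0.38 (0.997), Cd74 -0.26 ± 0.38 (0.997) and Ctsb 0.27 ± 0.35 (0.997). Over the 9 mice, hemoglobin genes summed to 1.03 to 18.9 UMIs per 10000 in 8 mice and to 139.6 in the BRQ mouse of pool 3, from the 1 cell above. Neutrophil and GMP genes summed to 464 to 614 in NTB, 91.4 to 600 in Veh and 143 to 717 in BRQ mice. With both marker sets left out of the sums, Apoe and Hmox1 were again the 2 genes called.

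Comparisons with Veh mice could not be made as planned, since only 1 Veh mouse had 10 members. A fit of all 9 mice with at least 3 members, chosen after seeing the data, tested 1296 genes. It called 1 gene in Veh against NTB (0.0772%) and 0 in BRQ against Veh (0%), where 18 genes had an unadjusted p under 0.05 and DESeq2 also called 0. Hmox1 had a log2 fold change of -1.85 ± 0.50 for Veh against NTB (SE; edgeR, adjusted p = 0.889), and Apoe 2.07 ± 0.70 (0.998). Hmox1 was called for Veh against NTB in members with at most 5000 UMIs, as the 1 gene called, and beside Fcnb when the pool 2 Veh mouse was left out.

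The called gene was Fcnb (chr2:28076378-28084885), the ficolin gene of neutrophil progenitors. It had 41, 15 and 87 UMIs in the members of NTB mice, 1, 0 and 0 in those of Veh mice, and 50, 20 and 8 in those of BRQ mice. As levels these were 7.39, 3.75 and 4.61 UMIs per 10000 in NTB, 0.147, 0 and 0 in Veh, with exact Poisson upper bounds of 0.819, 2.43 and 4.38, and 3.49, 2.16 and 0.946 in BRQ mice. The edgeR adjusted p for Veh against NTB was 0.0113, and its fitted fold depends on a prior count, since the Veh mice held 1 UMI in all. One member held 87.8% of the UMIs in the pool 1 NTB mouse and 86.7% in the pool 2 NTB mouse. In the pool 3 NTB mouse, which held 87 UMIs, they came from 10 members, of which the highest held 33.3%. In members with at most 5000 UMIs the level was 0 to 1.40 in NTB mice. In cells that were no members, Fcnb was at 6.66 to 8.10 UMIs per 10000 in NTB, 3.13 to 3.84 in Veh and 2.56 to 5.05 in BRQ mice. The call was lost when the pool 1 NTB mouse was left out (adjusted p = 0.0534) or the pool 3 Veh mouse (0.0629), while leaving out the pool 1 Veh mouse, which held 13 of the 20 Veh members, gave 45 called genes here and 12 in BRQ against Veh. Leaving out the pool 3 BRQ mouse gave 1 in BRQ against Veh.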

How the data were processed

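Per the labels and the study's methods, 3' single-cell libraries of hashtagged marrow cells were made on the 10x Genomics platform, and the authors deposited filtered matrices of UMI counts made with Cell Ranger 6.0.0 on mm10. The 3 deposited gene matrices with their hashtag counts held 39488 barcodes. Aligner settings and annotation release were not given in the sources used here. Of 32285 gene IDs, 32158 matched GENCODE M21 positions in GRCm38. The study stated limits of 500 and 7500 as transcripts; here they were read as detected genes, with UMIs as an alternative.

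Here, mice were called with HTODemux (Seurat 5.3.0, quantile 0.99), and Scrublet (scanpy 1.11.5) marked doublets for 1 alternative. UMIs of members were summed per mouse and tested with edgeR 4.0.16 (TMM, filterByExpr, robust quasi-likelihood fit, Benjamini-Hochberg adjustment); DESeq2 1.42.0 was an alternative. Shares were compared by exact permutation tests over mice. Levels are UMIs per 10000 UMIs, and log2 ratios of members to other cells used a pseudocount of 0.05. Members, gene lists and tests were chosen with earlier results of these data known. Named genes were the markers of both macrophage classes, up to 4 genes per list (called, or of highest mean level) and called genes with a mean CPM of at least 50 and no overlap. Genes named outside this rule are said to be. The pools are the labelled batch and pair the mice. Over 1296 genes, deviations from group means of mice in the same pool correlated between -0.37 and 0.21 (9 pairs). The edgeR fits were also run on simulated counts, with the same spread for all genes and larger changes than those of Apoe and Hmox1. That run does not bear on the calls above. Reads were not analysed here. The sources give 1 mouse per hashtag and pool.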

Additional observations from a re-analysis of the deposited data

Results flagged for a closer look

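A signal was found in barcodes outside the members, which entered no test. Of the 6726 barcodes that failed a cell filter, 75 (1.12%) met the C1q rule, 21 in pool 1, 20 in pool 2 and 34 in pool 3. Of these, 56 had fewer than 500 detected genes, 32 had over 15% mitochondrial UMIs and 13 had both. Their median was 678 UMIs and 8 C1q UMIs, and Axl was detected in 59, Vcam1 in 71 and Mrc1 in 48. S100a9 stood at 30.7 UMIs per 10000 in them. Hashtags gave 14 of them to NTB, 2 to Veh and 7 to BRQ mice.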

How the results depend on the processing

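The rule, the filters and the hashtag calls set how many members a mouse has, and the number of members limited what could be tested: 3 of 9 mice had under 10. Of 14 alternatives for each difference in share, all kept the direction of Veh minus NTB and BRQ minus NTB, and 13 kept that of BRQ minus Veh, which became -0.00163 percentage points after thinning. Left-out mice gave -1.35 to -0.516, 0.144 to 0.574 and -1.003 to -0.174 points for Veh minus NTB, BRQ minus Veh and BRQ minus NTB. The exchange of mice within pools (replicate block) is among the 14. By construction it leaves the differences at -0.932, 0.342 and -0.589 points, so it says nothing about their direction. Its exact permutation p was 0.5, 0.5 and 0.25, where 0.25 is the smallest possible.

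For BRQ against NTB (2 genes), the counts were 4 without a filter on low counts, 9 with the replicate block, 0 with tag ratios, 13 with 500 to 7500 UMIs, 8 with a C1q sum of at least 10, 5 with 20 members a mouse (1 NTB mouse left) and, as alternatives added after seeing the data, 11 with members of at most 5000 UMIs and 0 with 3 members a mouse. Left-out mice gave 0 to 13: 0 when the pool 3 NTB mouse was left out, and 4, 13 and 5 when the BRQ mice of pools 1, 2 and 3 were. For Veh against NTB (1 gene), the counts were 2 with DESeq2, 4 without a filter, and 0 with tag ratios, with 500 to 7500 UMIs, without Scrublet cells, with a C1q sum of at least 10 and without the erythroid and neutrophil genes; the replicate block gave 1, and left-out mice gave 0 to 45. For BRQ against Veh (0 genes), left-out mice gave 0 to 12, with 12 without the Veh mouse of pool 1 and 1 without the BRQ mouse of pool 3, and the replicate block gave 0. No Veh mouse had 20 members, so that alternative gave no value there. The causes were not tested.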
